A study of Mus musculus with 18 samples.

Results

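The genes described here are 10 imprinted genes that act on growth: H19, Igf2, Meg3, Dlk1, Peg3, Plagl1, Cdkn1c, Grb10, Mest and Ndn. They were taken by symbol from a table of 34745 mouse genes, in which each symbol stood on 1 line, and all 10 were present. Dlk1 had 0 counts in all 18 libraries, where a count of 0 allows up to 3 counts per library. The other 9 genes passed the filter on low counts and are among the 14241 genes tested. Col1a1, which encodes a chain of type I collagen and is abundant in stromal cells and osteoblasts, was the gene they were compared with.

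RNA-seq was made from bone marrow-derived macrophages (BMDMs), which were grown from mouse marrow with the growth factor M-CSF, for 3 days by the design text and longer by the general methods of the study, before the cytokine RANKL was added to start osteoclast formation. The libraries labelled WT came from wild-type littermates and those labelled KO from mice with a Zmat1 knockout, which the study's methods give as a global deletion on a C57BL/6 background. Each label has 3 libraries without RANKL (day 0), 3 after 1 day and 3 after 3 days of RANKL, and the M-CSF treatment is shared by all. Neither the age of the mice nor whether libraries came from separate animals is in the labels, so p-values measure the spread between these libraries, which may be technical. The libraries held 13789775 to 17559958 counts.

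The Zmat1 counts did not separate the labels. Zmat1 was at 2.48 to 7.50 CPM (counts scaled to the size of the library) in the WT label and 3.49 to 7.61 CPM in the KO label on day 0, at 3.55 to 4.41 and 4.04 to 6.47 CPM on day 1, and at 2.19 to 4.71 and 4.65 to 5.66 CPM on day 3. The fitted log2 fold changes of the KO label over the WT label were 0.24, 0.40 and 0.63 (adjusted p = 0.93, 0.821 and 0.615, edgeR). Counts over a whole gene do not show the loss of a part of it. The words WT and KO below are therefore the labels of the libraries.

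The cultures held RNA of several cell types, by marker genes. The summed level of 12 macrophage markers (Csf1r, Adgre1 and others) was 31270 to 61560 CPM on day 0 and 7126 to 18130 CPM on day 3. The summed level of 24 stromal or osteoblast markers was 147.8 to 6276 CPM in the WT label and 1564 to 4937 CPM in the KO label on day 0, and 14030 to 17980 and 25970 to 36770 CPM on day 3. With bulk RNA, more cells of a type and more RNA per cell cannot be told apart. In 5 of the 18 libraries (1 each of WT day 0, WT day 1 and KO day 0, and 2 of KO day 1) the title is written with a double hyphen, and the labels do not say what that marks. In a fit with this style as a term, 23.2% of all genes differed with it. Of the 9 imprinted genes, Meg3, Peg3, Plagl1, Grb10 and Ndn were lower in the double-hyphen libraries (log2 differences of -1.69 to -2.86) and Cdkn1c was higher (1.84), with adjusted p of 0.00414 to 0.0474. Col1a1 was lower, with a log2 difference of -3.03 (adjusted p = 0.00589). No day 3 library has such a title, so the edgeR comparisons with day 3 were repeated without those libraries. The ratios to Col1a1 were not repeated in that way.

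An imprinted gene is transcribed from the copy of one parent only, because methylation of CG pairs at a control region was set differently in the egg and the sperm. H19 and Meg3 are noncoding RNAs made from the maternal copy, and Igf2 and Dlk1 are their paternally transcribed neighbours. Many of these genes are high in fetal mesenchyme and fall after birth, and several regulate signalling by insulin-like growth factors. Grb10, Cdkn1c, Plagl1 and Ndn are known as brakes on growth, and Igf2 as a driver of it.

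The genes lie in a few clusters on GRCm38, the build of the table. H19 (chr7:142575529-142578143, minus strand) and Igf2 (chr7:142650766-142666816, minus strand) are 72.6 kb apart, and Cdkn1c (chr7:143458350-143461050, minus strand) lies further along the same chromosome. Ndn (chr7:62348277-62349928, plus strand) and Peg3 (chr7:6703892-6730421, minus strand) are elsewhere on it. Dlk1 (chr12:109452823-109463336, plus strand) and Meg3 (chr12:109541001-109571726, plus strand) are 77.7 kb apart. Plagl1 is at chr10:13060504-13131694 (plus strand), Grb10 at chr11:11930508-12038683 (minus strand) and Mest at chr6:30723547-30748465 (plus strand). All values are sums over a whole gene, so exons and promoters in use were not told apart.

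Start-site windows of Grb10, Igf2, Mest and Ndn, which rose in at least one label, are shown for their CG pairs. They were taken as start sites, and whether any of them lies in an imprinting control region was not examined. None is shown for H19. RefSeq (GRCm38.p6) gave windows of 300 bases for 8 of the 10 genes, 15 windows in all, and for Igf2, Grb10 and Mest the first window with the most CG pairs is shown beside the only window of Ndn. Each is read 5′ to 3′ on the gene's strand, with CG pairs in capitals.
Grb10, chr11:12037371-12037670, minus strand: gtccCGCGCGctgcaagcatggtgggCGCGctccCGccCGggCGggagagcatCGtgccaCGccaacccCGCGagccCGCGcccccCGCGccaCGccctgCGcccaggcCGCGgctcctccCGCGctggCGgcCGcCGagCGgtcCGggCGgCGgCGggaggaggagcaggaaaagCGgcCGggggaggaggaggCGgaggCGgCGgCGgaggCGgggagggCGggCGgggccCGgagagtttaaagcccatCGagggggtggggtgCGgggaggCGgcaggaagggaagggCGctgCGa
Igf2, chr7:142658755-142659054, minus strand: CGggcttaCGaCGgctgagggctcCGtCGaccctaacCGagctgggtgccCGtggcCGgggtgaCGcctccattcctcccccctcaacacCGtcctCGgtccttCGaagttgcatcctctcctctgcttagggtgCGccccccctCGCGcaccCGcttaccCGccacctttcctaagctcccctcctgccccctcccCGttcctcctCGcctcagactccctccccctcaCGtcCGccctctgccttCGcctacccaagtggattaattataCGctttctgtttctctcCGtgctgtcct
Mest, chr6:30737800-30738099, plus strand: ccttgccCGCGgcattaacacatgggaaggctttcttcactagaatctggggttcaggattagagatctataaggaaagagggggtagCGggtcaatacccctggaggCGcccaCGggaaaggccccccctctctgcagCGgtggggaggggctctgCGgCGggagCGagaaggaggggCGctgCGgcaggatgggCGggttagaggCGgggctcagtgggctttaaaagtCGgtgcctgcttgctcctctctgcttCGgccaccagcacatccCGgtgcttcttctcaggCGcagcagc
Ndn, chr7:62348027-62348326, plus strand: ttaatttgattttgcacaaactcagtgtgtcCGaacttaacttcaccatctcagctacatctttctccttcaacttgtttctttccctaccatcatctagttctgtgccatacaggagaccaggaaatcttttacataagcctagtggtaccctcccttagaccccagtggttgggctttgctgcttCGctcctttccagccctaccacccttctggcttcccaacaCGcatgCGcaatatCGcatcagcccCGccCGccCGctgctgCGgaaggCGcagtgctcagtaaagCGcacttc
The window of Grb10 held 45 CG pairs, as many as or more than are found in all but 1.93% of the 32851 windows. The window of Igf2 held 24 CG pairs and that of Mest 17, against a median of 7 over all windows. The windows not shown held 2, 14 and 7 CG pairs for Igf2, 9 for Grb10, and 8 and 17 for Mest. For these genes the richest window was thus set against single windows of all genes. The window of Ndn held 11 CG pairs, and 41.4% of all windows held as many or more. Methylation was not measured, so these counts describe sequence only.

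**Figure D1:**
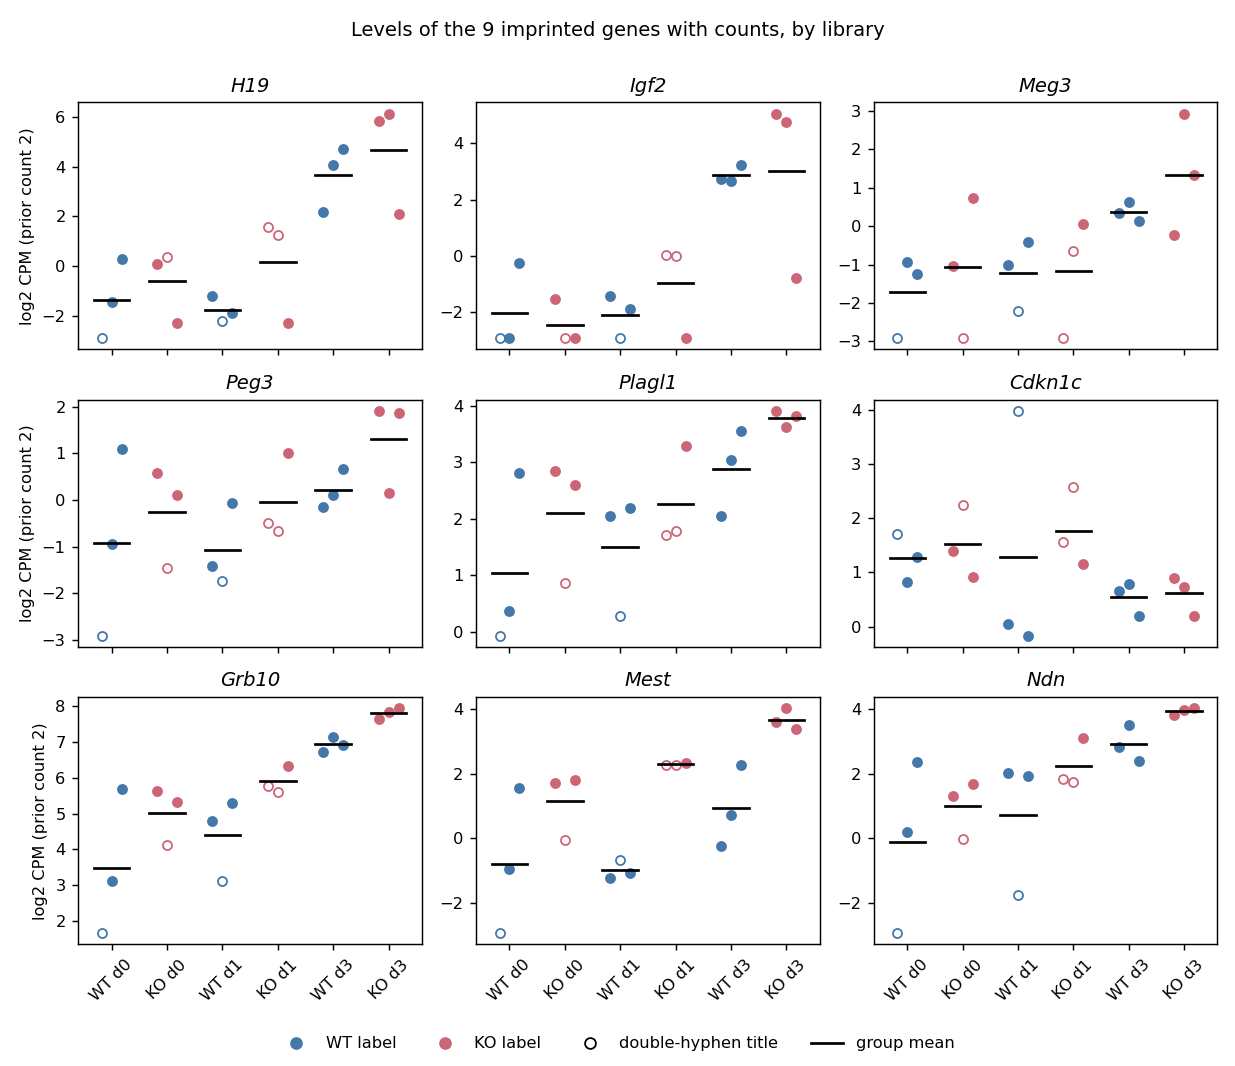
Level of each of the 9 imprinted genes with counts in each of the 18 libraries, as log2 CPM with a prior count of 2, by label and day. Points are libraries, open points have a double-hyphen title and bars are means of 3 libraries. Within each label H19, Igf2 and Grb10 stand above day 0 on day 3, while in Igf2 one KO library lies far below the other KO libraries.

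The members differed widely in level. Per transcript length, in the deposited FPKM values on day 3, Grb10 was the highest with 14.2 ± 1.87 FPKM in the WT label and 25.2 ± 1.67 FPKM in the KO label (SD, n = 3 each). Ndn followed with 5.46 ± 2.05 and 10.4 ± 0.56 FPKM, and H19 with 3.26 ± 2.35 and 8.90 ± 7.16 FPKM. The ranges of Ndn and H19 overlapped in both labels, so their order was not resolved. Igf2, Plagl1, Cdkn1c and Mest had means of 0.389 to 0.656 FPKM in the WT label and 0.580 to 2.05 FPKM in the KO label, and in the WT label their ranges overlapped. Peg3 and Meg3 were at 0.0781 and 0.0537 FPKM in the WT label and 0.192 and 0.158 FPKM in the KO label. Col1a1 was at 928 ± 96.6 and 1748 ± 305 FPKM, far above every imprinted gene.

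**Figure D2:**
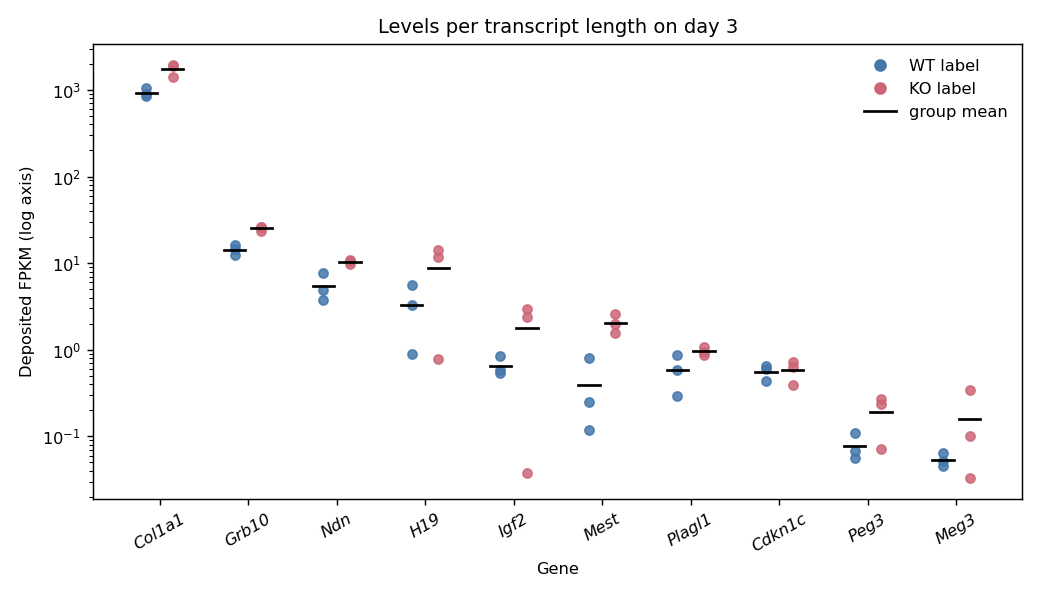
Deposited FPKM values on day 3 on a log axis, for Col1a1 and the 9 imprinted genes with counts. Points are the 3 libraries of a label and bars their mean. Grb10 is the highest of the imprinted genes, Ndn and H19 overlap below it, Meg3 and Peg3 have the lowest means, and H19 and Igf2 of the KO label span more than the others.

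The first comparison asks what 3 days of RANKL went with. H19, Igf2 and Grb10 rose in both labels, and Mest and Ndn rose in the KO label. In the WT label 3 of the 9 genes tested were higher on day 3 (edgeR, adjusted p under 0.05) and none was lower, where 23.7% of all genes tested were higher. In the KO label 5 of 9 were higher and none was lower, where 20.2% of all genes were higher. The median log2 fold change of the 9 genes was 1.93 in the WT label and 2.46 in the KO label, against -0.0308 and -0.00523 over all genes. Igf2 and Meg3 did not pass the filter on low counts in fits on day 0 and day 1 libraries only, so their inclusion favoured a rise. H19, Peg3 and Mest did not pass it in such a fit on the WT label. They passed it in the KO label and on day 0 of both labels together. The members were also chosen with earlier results of these data known, so these counts and medians are a description. The day 3 libraries did not overlap those of day 0 for 6 of the 9 genes in the WT label (62.5% of all genes) and for 7 in the KO label (58.8% of all genes), so separation of the days was about as common among all genes. The day 1 and day 3 comparisons share their day 0 libraries.

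H19 is a noncoding RNA that also carries a microRNA. On day 0 H19 was at 0, 0.232 and 1.07 CPM in the WT label and at 0.927, 1.15 and 0.0728 CPM in the KO label. After 3 days of RANKL H19 was at 4.34, 16.4 and 26.4 CPM in the WT label and at 56.4, 70.3 and 4.08 CPM in the KO label. Every day 3 library was above every day 0 library, and the KO library numbered 3 was far below its fellows on day 3. The log2 fold change was 5.10 (SE 1.28, adjusted p = 0.00472) in the WT label and 5.91 (SE 1.27, adjusted p = 0.00235) in the KO label.

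Igf2 encodes a growth factor that signals through the IGF1 receptor. In the WT label Igf2 had 0, 0 and 10 counts on day 0 and 127, 105 and 165 counts on day 3, or 6.56, 6.18 and 9.26 CPM. In the KO label it had 3, 0 and 0 counts on day 0 and 558, 445 and 8 counts on day 3, or 33.2, 27.2 and 0.453 CPM. The KO library numbered 3 was lower on day 3 than every WT library of that day, while the KO libraries numbered 1 and 2 were higher than all of them. The log2 fold change was 4.83 (SE 1.42, adjusted p = 0.0115) in the WT label. In the KO label every day 0 library was at or under the floor of 3 counts, so the rise of the mean is given as a bound. The day 3 mean was at least 91.9-fold higher with 3 counts in each day 0 library (adjusted p = 0.00204, edgeR). That mean rests on the libraries numbered 1 and 2, and the bound does not hold for number 3, with 8 counts. In a fit on the 6 KO libraries alone Igf2 did not pass the filter on low counts and was not tested. Igf2os, an antisense gene that overlaps Igf2, had 11 counts in all libraries together.

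Grb10 encodes an adaptor that binds the insulin and IGF1 receptors and restrains their signalling. On day 0 it was at 3.05, 8.59 and 51.1 CPM in the WT label and at 49.4, 17.2 and 39.8 CPM in the KO label. On day 3 it was at 105.8, 140.9 and 120.7 CPM in the WT label and at 200.3, 227.8 and 243.8 CPM in the KO label. The days were separate in both labels, and the WT day 0 library numbered 3 was far above its fellows. The log2 fold change was 2.54 (SE 0.75, adjusted p = 0.0118) in the WT label and 2.66 (SE 0.75, adjusted p = 0.0114) in the KO label. When only the 6 libraries of the WT comparison were fitted, Grb10 missed the threshold (2.58, adjusted p = 0.0642).

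Ndn encodes necdin, a growth-restraining protein of the MAGE family, and Mest an enzyme-like protein of mesoderm. Ndn was at 0, 1.01 and 5.01 CPM in the WT label and at 2.35, 0.846 and 3.06 CPM in the KO label on day 0, and at 6.97, 11.1 and 5.11 and at 13.8, 15.5 and 15.9 CPM on day 3. The log2 fold change of Ndn was 2.85 (SE 1.00, adjusted p = 0.0336) in the KO label and 1.93 (SE 0.98, adjusted p = 0.113) in the WT label. Mest was at 0, 0.387 and 2.79 CPM in the WT label and at 3.14, 0.846 and 3.35 CPM in the KO label on day 0, and at 0.723, 1.53 and 4.71 and at 11.97, 15.97 and 10.14 CPM on day 3. Both days overlapped for Mest in the WT label and not in the KO label. The log2 fold change of Mest was 2.37 (SE 0.86, adjusted p = 0.0381) in the KO label and 1.10 (SE 0.89, adjusted p = 0.309) in the WT label. The KO calls of Ndn and Mest were lost whenever any 1 of the 6 libraries was left out, as was that of Col1a1, with adjusted p of 0.0558 to 0.104 for Ndn and 0.0539 to 0.117 for Mest. Without the double-hyphen libraries Ndn was called in the KO label (2.53, adjusted p = 0.00618) and Mest was not (2.02, adjusted p = 0.0616).

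The 4 remaining genes passed the test in neither label, and some calls depended on the fit. Plagl1, which encodes a zinc finger transcription factor, had log2 fold changes of 1.41 (adjusted p = 0.134) and 1.48 (adjusted p = 0.124) in the WT and KO labels. With the library number as a block within label, Plagl1 was called in the KO label (1.65, adjusted p = 0.0358), as it was in a fit on the 6 KO libraries alone (1.48, adjusted p = 0.0382). Meg3, a noncoding RNA, had values of 2.32 (adjusted p = 0.144) and 2.46 (adjusted p = 0.10) on no more than 122 counts in any library. Meg3 was called in a fit on the 6 WT libraries of those days alone (2.35, adjusted p = 0.0487), and in the KO label without the day 0 library numbered 3 (4.24, adjusted p = 0.0401). Peg3, which encodes a zinc finger protein, had values of 0.38 (adjusted p = 0.759) and 1.67 (adjusted p = 0.176) on no more than 62 counts. Cdkn1c, which encodes the cell cycle inhibitor p57, was the one tested member with negative values in both labels, -0.80 (adjusted p = 0.457) and -1.05 (adjusted p = 0.347). Its level was 1.63 to 4.62 CPM on day 0 and 1.01 to 1.73 CPM on day 3. The highest Cdkn1c level of all libraries, 15.6 CPM, was in the double-hyphen WT library of day 1, where the other WT libraries of that day were at 0.902 and 0.758 CPM.

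The WT day 0 library numbered 3 decided how many genes were called in the WT label. It had the most Col1a1 of the day 0 libraries, 2011 CPM against 29.2 and 217 CPM in its fellows. It also had the highest WT day 0 level of H19, Igf2, Peg3, Plagl1, Grb10, Mest and Ndn. Without it 6 of 9 genes were higher on day 3 in the WT label, with Plagl1 (log2 fold change of 3.01, adjusted p = 0.00581), Mest (3.52, adjusted p = 0.00824) and Ndn (3.92, adjusted p = 0.00929) joining H19, Igf2 and Grb10. Calls over all genes, in either direction, rose as well, from 7143 to 7659, so the gain was not particular to these genes. Col1a1 itself then rose by a log2 fold change of 5.51 (adjusted p = 0.00233), against 2.87 (adjusted p = 0.053) with it. H19, Igf2 and Grb10 were called in both labels whichever 1 library was left out, and also on the single-hyphen libraries alone.

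**Figure D3:**
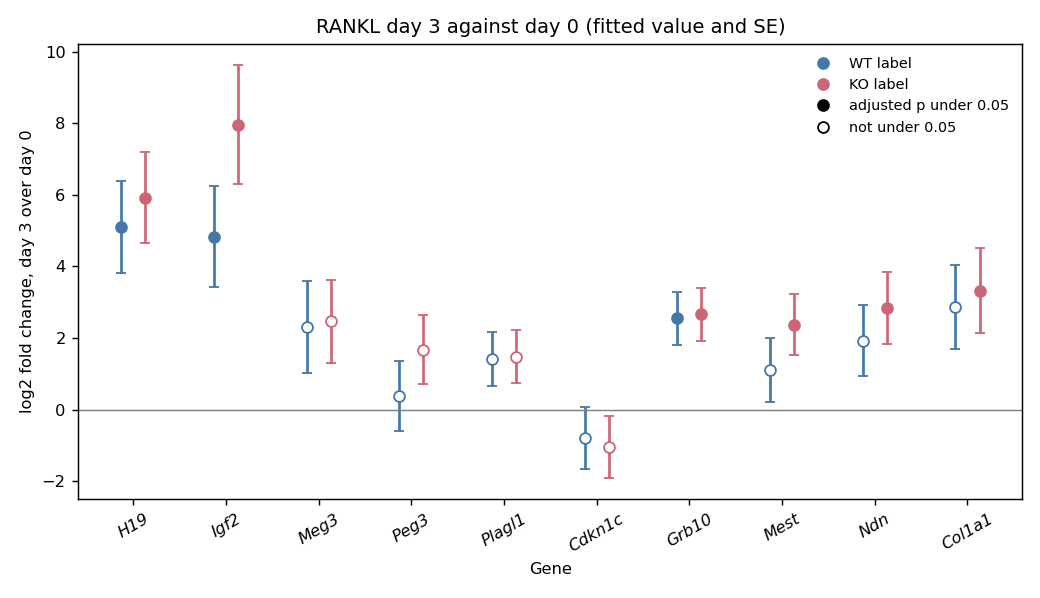
Fitted log2 fold change of day 3 over day 0 for the 9 imprinted genes and Col1a1 in each label, with its standard error. Filled points have an adjusted p under 0.05 (edgeR). Points of H19 and Igf2 lie above those of Col1a1 in both labels, Cdkn1c is below 0, and the KO point of Igf2 depends on the prior count because day 0 was at the floor.

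After 1 day of RANKL edgeR called none of the 9 genes in either label, and none had an unadjusted p under 0.05, where 2914 (WT) and 1456 (KO) of all genes had one. DESeq2 called none of the 9 either. In the WT label 2.35% of all genes were called and in the KO label 0.0211%. The median log2 fold change of the 9 genes was 0.105 and 0.792. H19 had 5, 1 and 2 counts in the WT label and 44, 31 and 1 counts in the KO label on day 1. Without the WT day 0 library numbered 3, Grb10 was called in the WT label, as were 1070 of all genes, against 335 with that library.

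The second comparison asks whether the labels differed. No imprinted gene was called between the labels on any day by edgeR, and the share of all genes called was 0.119% on day 0, 0.112% on day 1 and 0.14% on day 3. At an unadjusted p under 0.05 there were 0, 2 and 1 of the 9 genes, where all genes gave 1081, 1125 and 1521. The median log2 fold change of the 9 genes, KO over WT, was 0.657, 1.23 and 1.35 on the 3 days, beside 0.0248, -0.0196 and 0.0183 over all genes. The stromal or osteoblast markers moved beside them, with median log2 fold changes of 0.665, 1.38 and 1.09 and none of 23 called. So did 6 endothelial markers (0.727, 1.90 and 2.43) and 3 Schwann or neural markers (0.289, 1.47 and 1.54), none of them called. The part of these cell types in the label values was not tested. The libraries of the labels did not overlap for 0 of the 9 genes on day 0 (10.1% of all genes), 2 on day 1 (Grb10 and Mest; 12.6%) and 4 on day 3 (Plagl1, Grb10, Mest and Ndn; 29.2%).

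Mest had the smallest p of the 9 genes between the labels on days 1 and 3. On day 1 it was at 0.301, 0.50 and 0.345 CPM in the WT label and at 4.68, 4.73 and 4.87 CPM in the KO label. These groups were far apart, and the spread within each was narrow. The log2 fold change was 3.63 (SE 0.99, adjusted p = 0.366) on day 1, 2.45 (SE 0.86, adjusted p = 0.343) on day 3 and 1.18 (SE 0.89, adjusted p = 0.838) on day 0. The DESeq2 Wald test called Mest on day 1 (3.67, adjusted p = 0.023), among 76 of all genes, where edgeR called 16. Over 16 alternatives for day 1 the log2 fold change of Mest was 3.32 to 4.08 with adjusted p of 0.023 to 0.868. Mest overlaps Copg2 on the opposite strand, and the sources used here do not say whether counting used strand. Copg2 had 686 counts in the WT day 0 library numbered 1, in which Mest had 0, and 627 to 958 counts over all libraries.

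Grb10 showed the other separation of the labels on 2 days. On day 1 it was at 27.4, 8.58 and 38.9 CPM in the WT label and at 54.8, 48.7 and 80.8 CPM in the KO label (log2 fold change of 1.30, adjusted p = 0.668). On day 3 the KO libraries were all above the WT libraries by a log2 fold change of 0.87 (adjusted p = 0.69). A fit on only the day 3 libraries called it (0.87, adjusted p = 0.0435), among 158 of all genes, where the main fit called 20. Whether RANKL acted differently in the labels was tested as an interaction, day 3 minus day 0. No member was called, and 0% of all genes were. At an unadjusted p under 0.05 there were 769 genes and none of the 9, and DESeq2 called 4 genes and no member. The interaction estimates ranged from -0.25 for Cdkn1c to 1.28 for Peg3, leaving out Igf2 (adjusted p = 0.926), for which no size is given because KO day 0 was at the floor.

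H19 and Igf2 of the KO label followed the library number. In the libraries numbered 1, 2 and 3, H19 had 13, 15 and 1 counts on day 0, 44, 31 and 1 counts on day 1, and 947, 1150 and 72 counts on day 3. Igf2 had 3, 0 and 0 counts on day 0, 14, 12 and 0 counts on day 1, and 558, 445 and 8 counts on day 3. Number 3 was the lowest for H19 on each of the 3 days, and lowest or joint lowest for Igf2. Col1a1 was not low in number 3, at 1394, 380 and 1443 CPM on day 0, 1371, 851 and 3388 CPM on day 1, and 8273, 11750 and 12060 CPM on day 3. Number 3 was highest for Col1a1 on each day, by a small margin over the next library on days 0 and 3. The KO day 0 library numbered 2 and the KO day 1 libraries numbered 1 and 2 have double-hyphen titles, so number and title style cannot be told apart on day 1, and all KO libraries of day 3 have single-hyphen titles. The labels do not say what libraries of one number share, and this pattern was chosen after the values were seen. Adiponectin (Adipoq), a marker of fat cells and of the stromal cells that surround marrow vessels, also had 189, 115 and 2 counts on KO day 3. On KO day 0 it had 5, 2 and 0 counts. Adipoq is among the 3 genes most like Igf2 over these same libraries, so a shared pattern follows from that choice. In the WT label, the library numbered 3 had the most H19 and Igf2 on day 0 and on day 3.

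The third comparison set each member against Col1a1. Relative to Col1a1, 6 of the 9 genes fell from day 0 to day 3, which is a smaller share than the 95.1% of all 14240 other genes that fell relative to it. The median change of the log2 ratio over all those genes was -4.03, and of the 6 only Cdkn1c fell by more. The log2 ratio of Grb10 to Col1a1 fell by 0.93 and that of Ndn fell by 1.06, which were the smallest of these falls. Mest fell by 1.94, Plagl1 fell by 2.27, Peg3 fell by 2.69 and Cdkn1c fell by 4.85 relative to it. For each of these 6 the exact permutation p was 0.005, the smallest that 400 orders of the days within labels can give, and 0.0057 adjusted over all genes. Meg3 missed the threshold (-1.80, exact permutation p = 0.08, adjusted p = 0.0831). H19 and Igf2 did not pass the test either (exact permutation p = 0.31 and 0.325, adjusted p = 0.315 and 0.33). Their day 0 counts were at most 15 and the size of the change moved with the prior count, from 1.73 with a prior count of 0.5 to 0.545 with 5 for H19 and from 2.54 to 0.205 for Igf2. A prior count of 2 was added to both genes of each ratio. The double-hyphen libraries of day 0 were not left out together here, and the part of title style in these falls was not tested.

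In FPKM, Grb10 was 1.42 to 1.62% of Col1a1 in the 3 WT libraries and 1.33 to 1.66% in the 3 KO libraries on day 3, and Ndn was 0.42 to 0.742% and 0.554 to 0.698%. The label ranges lay over each other for both genes. H19 was 0.104 to 0.631% of Col1a1 in the WT label and 0.0412 to 0.831% in the KO label, and Igf2 was 0.0518 to 0.0956% and 0.00198 to 0.212%. H19 and Igf2 thus varied more against Col1a1 among libraries of one group than Grb10 and Ndn did. On day 0 Grb10 was 1.75 to 7.18% of Col1a1 in the WT label and 1.89 to 3.10% in the KO label.

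**Figure D4:**
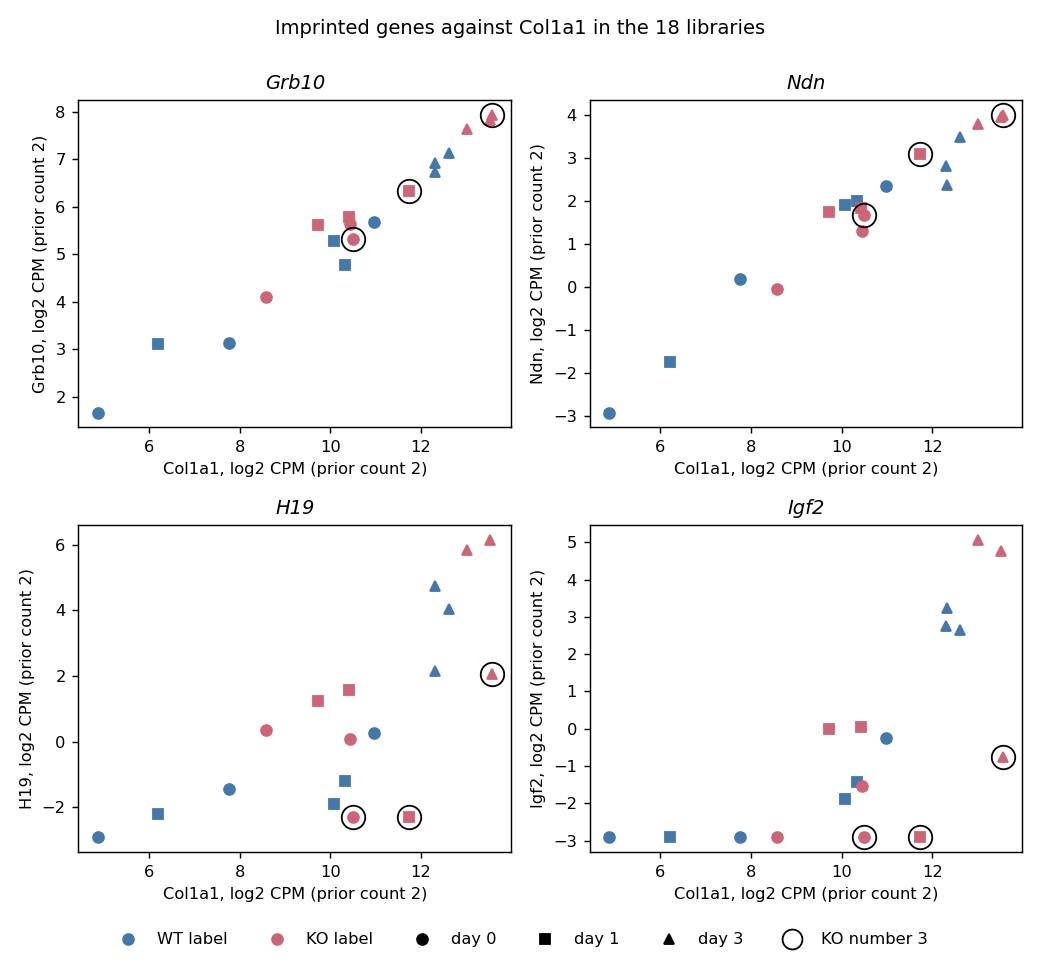
Level of Grb10, Ndn, H19 and Igf2 against Col1a1 in each of the 18 libraries, as log2 CPM with a prior count of 2, by label (colour) and day (shape). Black rings mark the 3 KO libraries numbered 3. Grb10 and Ndn climb with Col1a1 through all days, while the ringed libraries lie low for H19 and Igf2 at a high Col1a1.

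Within one day the 6 libraries were also compared. On day 0 the Pearson r of log2 levels with Col1a1 was 0.99 for Grb10 (rho 0.943), 0.99 for Mest (rho 0.829), 0.98 for Ndn (rho 0.943), 0.959 for Peg3 (rho 0.886) and 0.933 for Plagl1 (rho 0.829). Without the 2 libraries farthest from the median of Col1a1 these 5 values were 0.977, 0.943, 0.973, 0.976 and 0.975. The libraries kept included the KO library numbered 2, which has a double-hyphen title. It had 380 CPM of Col1a1, where the others kept had 1394 to 2011 CPM, so these values may rest on it. Over all 6 libraries H19 and Igf2 had 0.608 (rho 0.429) and 0.605 (rho 0.676), and Cdkn1c had -0.309 (rho -0.257). The share of all genes with a higher r was 0.744% for Grb10, 0.716% for Mest, 1.66% for Ndn and 21.2% for H19. On day 1 r was 0.993 for Ndn (rho 0.829) and 0.936 for Grb10 (rho 0.771), and without the 2 farthest libraries it was 0.645 and -0.219. Plagl1 had 0.945 (rho 0.6) on day 1 and 0.041 without them, and Peg3 0.761 (rho 0.714) and -0.266. The day 1 relations of Grb10, Plagl1 and Peg3 thus rested on those libraries. Mest had 0.44 (rho 0.314) on day 1, H19 0.183 (rho -0.029), Igf2 0.256 (rho 0.116) and Cdkn1c -0.741 (rho -0.486). No member had an adjusted p under 0.05 on any day by the exact permutation test, adjusted over 14240 genes. The number of all genes with one was 0 on each day, so this test does not set the members apart from other genes. The lowest member value was 0.0996, for Grb10 on day 0, and Col1a2 (r of 0.999) had the same value there. On day 3 the labels did not overlap in Col1a1, so no value over both labels is given.

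Over all 18 libraries each member was set beside every tested gene, as a description. The 3 genes most like Grb10 were Pcolce, Cnn3 and Fstl1 (r of 0.993 to 0.994), and Col1a1 was the gene ranked 80. Ndn was most like Arhgef40, Fgf7 and Mpdz (r of 0.985 to 0.986), with Col1a1 ranked 9. Plagl1 was most like Smtn, Dlx6 and Bok, and Peg3 most like Slit3, Stox2 and Adamts9. These libraries share the rise of stromal markers with day, which can give many genes a high r. With group means removed, r with Col1a1 was 0.967 for Grb10, 0.983 for Ndn, 0.873 for Plagl1 and 0.793 for Peg3. It was 0.633 for Mest, 0.55 for Meg3, 0.236 for Igf2, 0.155 for H19 and -0.686 for Cdkn1c. The part of title style in these values was not tested.

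H19 and Igf2 resembled each other more than Col1a1. H19 was most like Omd (r of 0.952), Igf2 (0.943) and Fndc1 (0.938), with Col1a1 ranked 1346. Igf2 was most like Ackr4 (0.965), Adipoq (0.963) and Ptch1 (0.945), with Col1a1 ranked 1706. With group means removed, r between H19 and Igf2 was 0.846. Mest was most like Igfbp3 (0.945), Heyl and Camk2n1, with Col1a1 ranked 554. Cdkn1c, most like Slc30a1, Ppp3r1 and Rbms1 (r of 0.891 to 0.899), had an r of -0.602 with Col1a1. Meg3 was most like Schip1 (ENSMUSG00000027777), Socs2 and Hoxb2 (r of 0.864 to 0.872), on Meg3 counts at or near 0 in many libraries. A second, overlapping entry named Schip1 held 101 counts in all, beside 1963 in this one, so reads of Schip1 may be split.

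The share of other imprinted genes called was near that of all genes. Of a list of 54 further imprinted genes 35 were tested, and from day 0 to day 3 12 were higher and 6 lower in the WT label, and 12 higher and 4 lower in the KO label, with medians of 0.388 and 0.437. Over all genes 50.2% were called in the WT label (26.5% lower) and 42.5% in the KO label (22.3% lower), so these counts are no result about imprinted genes. No gene of the list was called between the labels. The 4 with the highest mean level were Gnas, Igf2r, Cd81 and H13. Igf2r, the receptor that clears IGF2 from the cell surface, went from 168 ± 51.5 to 530 ± 58.6 CPM in the WT label (log2 fold change of 1.66, adjusted p = 0.000152) and from 164 ± 58.5 to 388 ± 5.52 CPM in the KO label (1.24, adjusted p = 0.00165). Cd81, which encodes a tetraspanin, rose in the KO label (1.26, adjusted p = 0.00938) and was at 0.14 (adjusted p = 0.745) in the WT label. Gnas, which encodes a G protein subunit, had -0.23 (adjusted p = 0.345) and -0.03 (adjusted p = 0.906), and H13, which encodes a peptidase, 0.21 (adjusted p = 0.178) and 0.29 (adjusted p = 0.0776).

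Of 25 genes of the insulin-like growth factor pathway, which include Igf2 and Grb10, 20 were tested. From day 0 to day 3, 6 were higher and 4 lower in the WT label, and 7 higher and 3 lower in the KO label, with medians of 1.00 and 1.30. These shares are also near those of all genes. The 4 with the highest mean level were Igfbp4, Igf1, Igf2r and Igfbp7. Igf1, the ligand made by macrophages, fell in both labels, from 755 ± 112 to 169 ± 83.6 CPM in the WT label (log2 fold change of -2.16, adjusted p = 0.000367) and from 665 ± 59.9 to 220 ± 101 CPM in the KO label (-1.60, adjusted p = 0.00354). Igfbp4, a binding protein, fell in the WT label (-1.56, adjusted p = 0.00378) and had -0.44 (adjusted p = 0.354) in the KO label. Igfbp7, a further binding protein, had 1.83 (adjusted p = 0.10) and 2.13 (adjusted p = 0.0691). The ligand Igf2 thus rose over the same 3 days in which Igf1 fell. On day 3 Igf2 was still far below Igf1, at means of 7.33 CPM in the WT label and 20.3 CPM in the KO label.

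The marker lists moved with RANKL as follows. Of 23 stromal or osteoblast markers tested, 17 were higher in the WT label and 20 in the KO label on day 3, and none was lower. Of 10 osteoclast markers 9 were higher and of 12 macrophage markers 9 were lower in both labels. Of the adipocyte list only Adipoq could be tested, and it rose in both labels (3.64, adjusted p = 0.0483 and 5.10, adjusted p = 0.0141). Of 2 muscle markers tested both were higher in both labels, of 3 Schwann or neural markers 1 and 2 were higher, and of 6 endothelial markers 2 were lower in the WT label and none was called in the KO label. Of the germ line and trophoblast list 1 gene was tested and was not called, and its summed level was at most 1.46 CPM. The part of these cell types in the imprinted genes' rise was not tested.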

How the data were processed

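Counts per gene and FPKM values of 18 RNA-seq libraries were deposited by the authors in 1 table. The submitters' processing notes name StringTie and GRCm38.p4 (mm10), and the aligner, the counting program and its use of strand are not given in the sources used here. Counts were whole numbers and were tested with edgeR 4.0.16 (R 4.3.3) by the quasi-likelihood test after filterByExpr and TMM scaling, on all 18 libraries as 6 groups, with Benjamini-Hochberg adjustment over 14241 genes and a threshold of 0.05. CPM used TMM-scaled library sizes, and log2 CPM a prior count of 2. The deposited FPKM values served only to compare genes. Ratios and correlations with Col1a1 were tested by exact permutation and adjusted over all genes, in place of the adjustment over members planned first. Named genes were the members, the 3 genes most like each, and the 4 of each list with the highest mean level. The members and lists were chosen with earlier results of these data known. Scripts were tested on simulated data. Alternatives were DESeq2 1.42.0, other filters and scaling, replicate blocks, title style and leaving out each library. Deviations of same-numbered KO libraries of days 0 and 3 correlated at 0.13 to 0.398, over 0.1 in each of the 3 pairs. A block within label is therefore given where it changed a KO call. The numbers stand in the titles, but that they mark pairs is not stated there. Correlations between libraries of unlike number were not computed. Floors cover counting error only.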

Additional observations from a re-analysis of the deposited data

How the results depend on the processing

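The number of the 9 imprinted genes called between day 3 and day 0 in the WT label was 3 to 6 when 1 library was left out. It was 6 without the WT day 0 library numbered 3, which also gave 1 gene called after 1 day in the WT label (0 to 1 over the libraries left out). Calls over all genes rose there too, to 7659 on day 3 and 1070 on day 1. In the KO label the number was 3 to 4. Between the labels, DESeq2 called 1 of the 9 genes (Mest) on day 1, among 76 of all genes. A fit on the groups compared alone called 1 of the 9 (Grb10) on day 3, among 158 of all genes. With a replicate block the numbers for day 3 against day 0 were 4 (WT) and 5 (KO), and with the block within label 4 and 6. Same-numbered WT libraries of days 0 and 3 did not deviate together in every pair (correlations of -0.023 to 0.111). Whether they share more than a number is not known. The block added Plagl1 and took no gene's call away. With 1 library left out, the fold change of Peg3 in the WT label was -0.15 to 2.40, below 0 without WT day 0 replicate 1, and that of Cdkn1c between the labels on day 3 was -0.092 to 0.27, below 0 without WT day 3 replicate 3 or KO day 3 replicate 1 (-0.082). On single-hyphen libraries Peg3 was at -0.12 and H19 between the labels on day 1 at -1.57. The cause was not tested. Scaling by total counts moved the median of all genes for day 3 against day 0 by over 0.1, to 0.331 (WT) and 0.287 (KO). The restriction to single-hyphen libraries was chosen after seeing the data. On day 0 Igf2 had at most 10 counts in any library, Meg3 at most 21 and Peg3 at most 28.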
